A study of Homo sapiens with 6 samples.

Results

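The splicing factors described here were the 56 gene symbols of the HNRNP, SRSF, SNRP and SF3 families among the 24462 symbols counted in PC3 cells. The rule for choosing them used symbols and no measured value, taking those that start with HNRNP or SNRP and another letter, SRSF and a number, or SF3A or SF3B and a number. The families themselves were picked with earlier results of these data known. HNRNPCL genes and pseudogenes ending in P and a number were left out. The 56 comprised 23 HNRNP, 12 SRSF, 12 SNRP and 9 SF3 symbols, among them the antisense transcript HNRNPU-AS1 and the readthrough transcript HNRNPUL2-BSCL2. PC3 is an established human prostate cancer cell line that was started from a metastasis in bone. RNA-seq counts were available for 6 libraries, 3 from cells given a non-targeting siRNA (Control) and 3 from cells given siRNA against CITED2 (si-CITED2), each at 80 nM for 72 h with no other agent named in the labels. CITED2 is a transcriptional coregulator, and the study asked how its loss changes gene expression in prostate cancer cells. The study's methods give a single CITED2 siRNA sequence and this arm used a single cell line, so effects of that siRNA on other targets and of the loss of CITED2 cannot be told apart. The study describes the RNA-seq experiments as independent repeats, and the labels do not say how the libraries of a group were obtained.

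Splicing removes introns from precursor mRNA in the spliceosome, a machine built from small nuclear ribonucleoproteins (snRNPs). The SNRP genes encode the Sm proteins, which form the ring shared by most spliceosomal snRNPs, and proteins specific to the U1 or U2 snRNP. The SF3A and SF3B genes encode subunits of the U2 snRNP that hold the branch site of the intron. SRSF genes encode serine- and arginine-rich (SR) proteins, which mostly favour inclusion of the exons they bind, and HNRNP genes encode abundant nuclear RNA-binding proteins that often oppose inclusion or stabilise and export mRNA. Many of these proteins control their own mRNA through exons that trigger its decay.

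Total counts ranged from 19508925 to 28936374 per library, and all 56 symbols passed the filter on low counts, the lowest count of any of them in any library being 163. The targeted gene was checked first. CITED2 had 858.6, 892 and 773.1 normalized counts in the libraries labelled Control and 1084.3, 921.1 and 983.8 in those labelled si-CITED2. Its mRNA was higher, not lower, under the siRNA label, with a log2 fold change of 0.24 (SE 0.07, adjusted p = 0.03626 by edgeR's quasi-likelihood test). That call was lost without Control 1, Control 3, si-CITED2 1 or si-CITED2 3 (adjusted p = 0.05363 to 0.1539). The mRNA thus went against the knockdown label, while the study checked the knockdown by immunoblot of the protein, which was not analysed here. Every direction below refers to the labels as given. Prostate epithelial identity could be checked only in part: KRT8, KRT18 and KRT19 were at 333 to 958 CPM (counts scaled to library size) in every library, while the prostate marker KLK2 was at 0. Of the leukocyte markers, PTPRC and CD3E were at or under 0.0751 CPM, CD14 at or under 0.564 CPM, and CD68, a lysosomal protein that epithelial cells can also express, at 136 to 145 CPM in Control and 121 to 145 CPM in si-CITED2. The summed level of 5 erythroid markers was 0.151 to 0.415 CPM in Control and 4.89 to 6 CPM in si-CITED2, and that of 5 fibroblast or endothelial markers 5.68 to 6.05 and 6.51 to 7.84 CPM, in each case led by a few genes (the hemoglobin genes and COL1A1). Their part in the results below was not tested. The libraries numbered 1 stood apart from the others of their groups. Counts of Control 1 differed from those of Control 2 and 3 by a chi-square of 6.78 and 7.53 per degree of freedom over genes, against 3.89 between Control 2 and 3, and the same values in si-CITED2 were 5.09 and 5.36 against 2.89. Results that rest on these libraries are given below with and without them.

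Several of the 56 transcripts share sequence with other genes, and the counting program was not given in the sources used here. Of the 55 symbols matched to GENCODE 29 transcripts, 9 had no stretch of 50 bases in common with another gene, 19 shared more than 10% of such stretches and 3 more than 50%. HNRNPUL2-BSCL2 shared 98.8% of its 50-base stretches with other genes, mainly HNRNPUL2, and SRSF1 59%, mainly with an overlapping transcript. HNRNPA1L2 shared 58.5%, with 47.6% of its stretches also in HNRNPA1. The pseudogene HNRNPA1P10, left out by the rule and chosen after its values were seen, shared 88.4%, with 72.8% in HNRNPA1. Its mean in Control was 9690 normalized counts, where HNRNPA1L2 had 1750 and HNRNPA1 23522. SNRPN shared 44.2%, most of it with SNURF, which lies on the same transcript (34%). The coding sequences of a pair of near-identical and a pair of related members are shown because they set what a read can tell apart. HNRNPA1 and HNRNPA1L2, an intronless copy of it, differed at 15 of 963 coding bases (98.4% identity) and had an identical run of 174 bases, longer than many sequencing reads. SNRPB and SNRPN, which encode the related Sm proteins SmB and SmN, differed at 129 of 723 bases (82.2% identity), with no identical run over 32 bases. The stretches below run 5′ to 3′ from coding base 589 to 648 for the first pair and from 511 to 570 for the second, as in GENCODE 29 on GRCh38, with capitals where the members of a pair differ.
HNRNPA1: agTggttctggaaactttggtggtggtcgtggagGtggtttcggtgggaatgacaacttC
HNRNPA1L2: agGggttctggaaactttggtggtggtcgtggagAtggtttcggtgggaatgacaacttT
SNRPB: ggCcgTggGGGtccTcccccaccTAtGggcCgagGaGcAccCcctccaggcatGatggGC
SNRPN: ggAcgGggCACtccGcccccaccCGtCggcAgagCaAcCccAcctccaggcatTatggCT
The first pair differed at 3 of the 60 bases shown and the second at 17. Values of HNRNPA1, HNRNPA1L2, HNRNPUL2, HNRNPUL2-BSCL2 and SRSF1 are therefore uncertain, while reads from the coding sequence of SNRPB and SNRPN can mostly be told apart. SNRPN, SNRPA1, SRSF9, HNRNPL and SRSF2 shared 44.2%, 41.5%, 38.9%, 32.3% and 29.5% of their stretches with other genes, beside 29.1% for HNRNPA1. Their values carry the same doubt.

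The 55 matched transcripts differed widely in level per kilobase (kb) of exon. HNRNPM, a regulator of exon choice, had the highest level, 7802 ± 244 normalized counts per kb (SD, n = 3) in Control. HNRNPA2B1, which binds and transports RNA, followed with 6180 ± 274, SF3B2 with 5945 ± 41.3, HNRNPK with 5857 ± 892 and HNRNPA1 with 5495 ± 298. HNRNPM lay above the rest beyond their spread, while HNRNPA2B1, SF3B2 and HNRNPK overlapped in their Control values, as did HNRNPK and HNRNPA1. The most abundant SNRP member was SNRPC, the U1-specific protein U1-C, with 5485 ± 247, and the most abundant SRSF member was SRSF9 with 2270 ± 199, which overlapped HNRNPL with 2480 ± 61.9. The lowest levels were those of SRSF12 with 56.92 ± 8.55, HNRNPUL2 with 98.19 ± 6.54, HNRNPA0 with 99 ± 5.87 and SRSF8 with 118.7 ± 9.94. HNRNPUL2 and HNRNPA0 could not be ordered beyond their spread, and part of the reads of HNRNPUL2 may have been counted for its readthrough transcript.

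**Figure D1:**
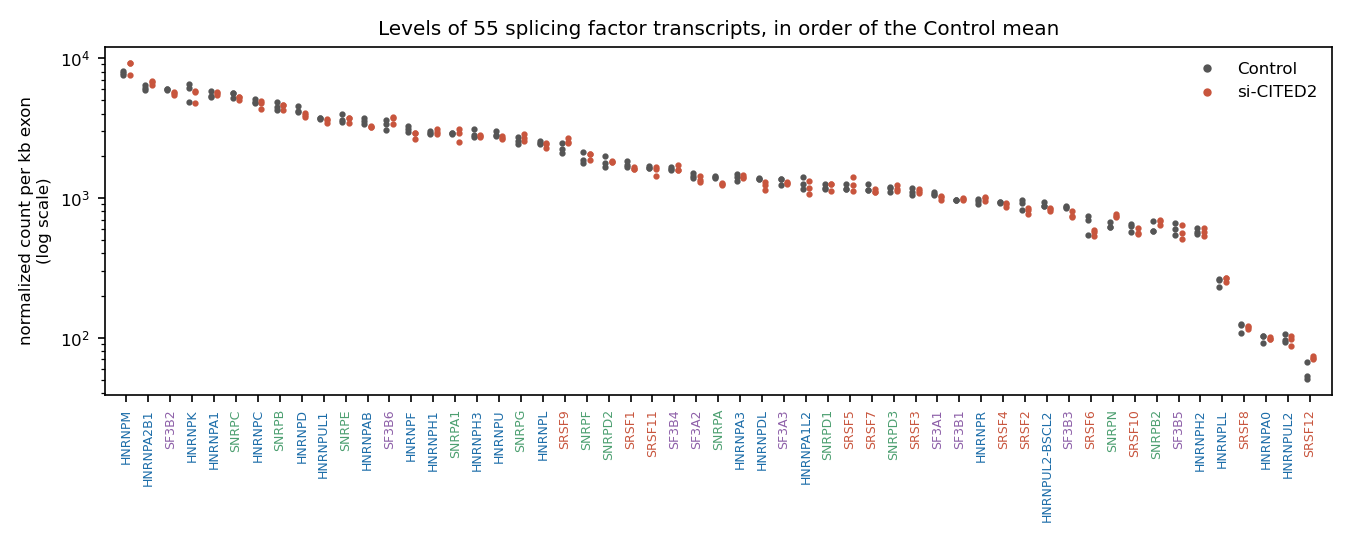
Normalized counts per kb of exon (log scale) of 55 splicing factor transcripts in the order of their Control mean, with a grey point for each of the 3 Control libraries and a red point for each of the 3 si-CITED2 libraries. Levels fell from 7802 per kb for HNRNPM to 56.92 per kb for SRSF12, and for nearly every gene the grey and red points sat close together beside the differences between genes.

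The comparison of si-CITED2 with Control asked whether these splicing factor mRNAs changed with the siRNA. Of the 56, 3 fell and 1 rose at an adjusted p under 0.05 (7.14%), where 17.4% of all 16314 genes tested passed (8.09% lower and 9.36% higher), and 21.6% of the 12051 genes with a mean of at least 100 normalized counts. The 3 that fell were SF3B3, SNRPA and HNRNPDL, and SNRPN rose. All 4 changes were small, between a fall of 11.5% and a rise of 17.1%. The median log2 fold change of the 56 was -0.04, beside -0.001 for all genes tested, and their median absolute log2 fold change was 0.07, beside 0.14. In total 36 log2 fold changes lay below 0 and 20 above. The 95% interval of the fold change lay within 1.3-fold in either direction for 54 of the 56 (96.4%), against 51.1% of all genes tested and 69% of those with a mean of at least 100 normalized counts. That share was 92.5% of the 160 other splicing genes described below, so it was not particular to the 56. The exceptions among the 56 were SRSF6 and SRSF12, and none of their estimates was over 1.3-fold in either direction. Values of the groups did not overlap for 15 of the 56 (26.8%), 12 lower and 3 higher, where 32.5% of all genes tested did not overlap. Without the adjustment for multiple tests, 9 of the 56 were lower and 5 higher at p under 0.05. Of all 16314 genes tested, 2321 were lower and 2407 higher at that level.

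**Figure D2:**
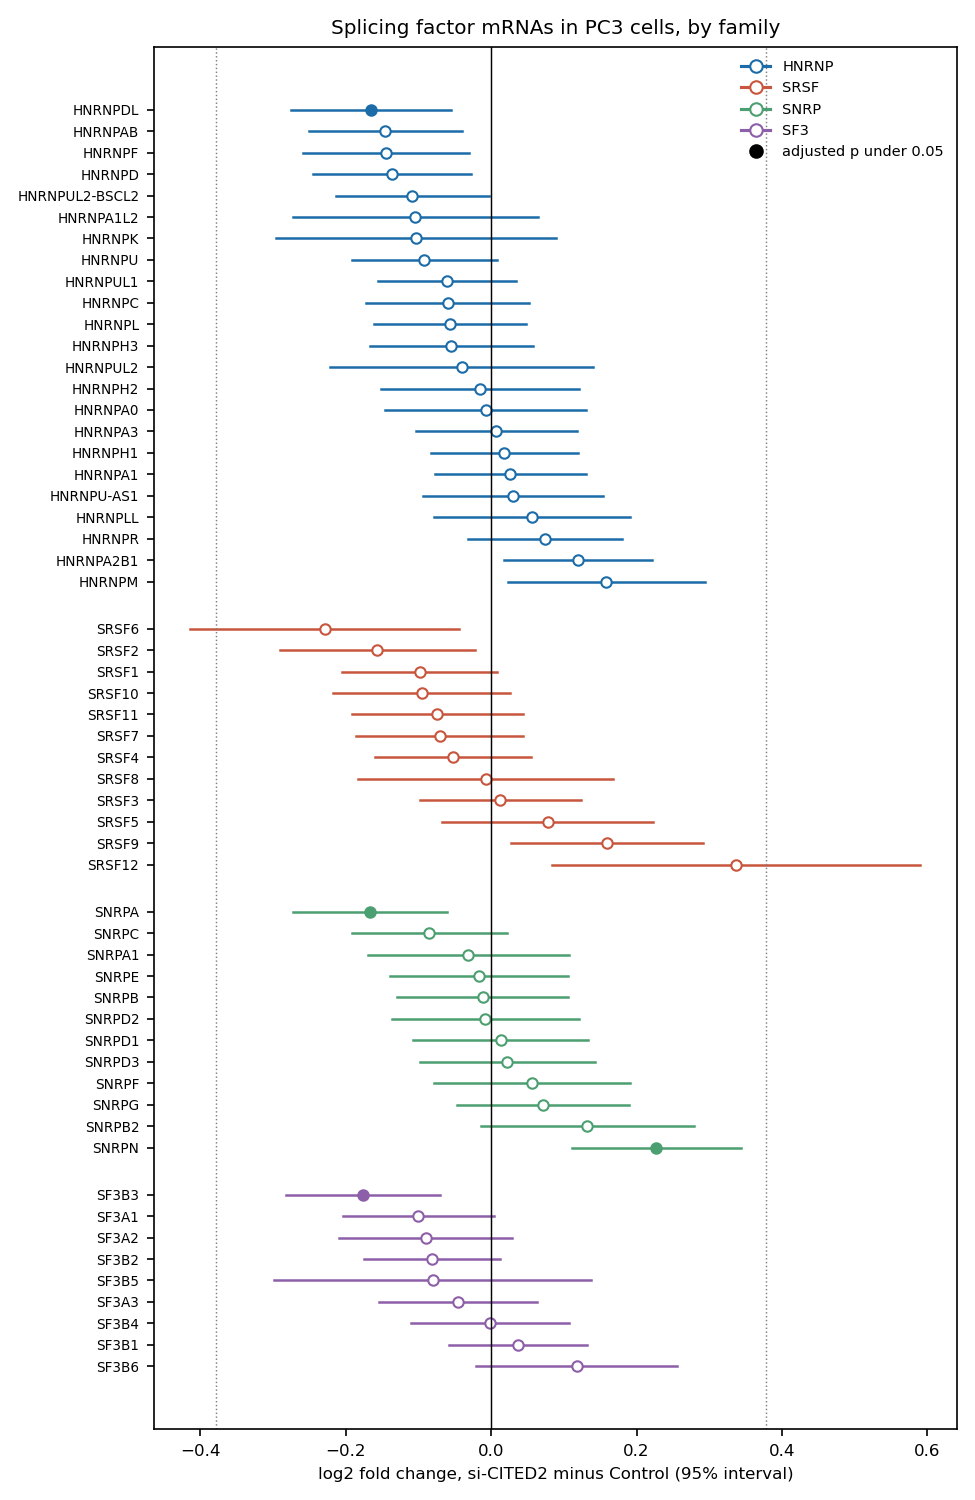
Log2 fold change of si-CITED2 against Control for the 56 splicing factor symbols, by family and in order of size, with 95% intervals (edgeR, n = 3 per group), filled points for adjusted p under 0.05 and dotted lines at 1.3-fold. Filled points mark HNRNPDL, SNRPA and SF3B3 on the lower side and SNRPN on the higher side, and 54 of the 56 intervals stayed between the dotted lines.

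Of the 23 HNRNP symbols, 1 fell, none rose and 22 did not pass the test in edgeR. HNRNPDL, the hnRNP D-like protein that binds AU-rich sequences, had 7465, 7284 and 7346 normalized counts in Control 1 to 3 and 6113, 6663 and 6923 in si-CITED2 1 to 3. All si-CITED2 values lay below all Control values, and si-CITED2 1 was the lowest. Its log2 fold change was -0.17 (SE 0.05, adjusted p = 0.03612 by edgeR). The call was lost when any library other than si-CITED2 3 was left out (adjusted p = 0.0609 to 0.1227), and without both libraries numbered 1 the log2 fold change was -0.11 (adjusted p = 0.07564). HNRNPAB, HNRNPF and HNRNPD, chosen after their values were seen, had the next lowest values, with log2 fold changes of -0.15, -0.14 and -0.14 (adjusted p = 0.05336, 0.07842 and 0.08237) and no overlap between the groups. DESeq2 (adjusted p = 0.02928) and edgeR without TMM (adjusted p = 0.0277) called HNRNPAB as well. HNRNPD and HNRNPAB belong to the same subfamily as HNRNPDL. The groups did not overlap for 7 of the 23 HNRNP symbols (30.4%, beside 32.5% of all genes tested), and all 7 were lower in si-CITED2, where 2631 of all genes without overlap were lower and 2679 higher.

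None of the most abundant HNRNP mRNAs passed the test with all 6 libraries. HNRNPA2B1 had 38467, 36526 and 35227 normalized counts in Control and 38443, 40900 and 40397 in si-CITED2, with Control 1 between the si-CITED2 values. Its log2 fold change was 0.12 (SE 0.05, adjusted p = 0.1034), with a 95% interval of the change from 1.25% to 16.6%. It passed without Control 1 (log2 fold change 0.15, adjusted p = 0.01872) and without both libraries numbered 1 (0.18, adjusted p = 0.0006389). HNRNPM, the most abundant per kb, had a log2 fold change of 0.16 (adjusted p = 0.1045), and its values are given with those of the libraries numbered 1. HNRNPC, which binds uridine tracts in nascent transcripts, had 31919, 30294 and 29739 in Control and 27243, 30143 and 30822 in si-CITED2, an overlapping set with a log2 fold change of -0.06 (adjusted p = 0.5094). HNRNPA1, a repressor of exon inclusion, had 24961, 23072 and 22533 in Control and 23932, 23479 and 24458 in si-CITED2, and its copy HNRNPA1L2 had 1931, 1737 and 1583 and then 1456, 1623 and 1810. Neither passed the test, with log2 fold changes of 0.03 (adjusted p = 0.7799) and -0.10 (adjusted p = 0.435). HNRNPUL2-BSCL2 had a log2 fold change of -0.11 (adjusted p = 0.1588) and HNRNPUL2 of -0.04 (adjusted p = 0.8086). HNRNPU-AS1, which lies antisense to HNRNPU, had a log2 fold change of 0.03 (adjusted p = 0.7888), and HNRNPU, a nuclear scaffold protein, of -0.09 (adjusted p = 0.2125). Without a statement on strand, reads of HNRNPU and HNRNPU-AS1 cannot be told apart.

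Of the 12 SRSF genes none passed the test in the edgeR comparison of all 6 libraries, and DESeq2 called none of them. At an unadjusted p under 0.05, 2 were lower, SRSF6 and SRSF2, and 2 higher, SRSF12 and SRSF9. At that level 2321 of all 16314 genes tested were lower and 2407 higher. SRSF11, the SRSF gene with most counts, had 7400, 7392 and 7731 normalized counts in Control and 6508, 7517 and 7363 in si-CITED2. Those values overlapped, and its log2 fold change was -0.07 (adjusted p = 0.4271). SRSF1, the founding SR protein, had 5850, 5488 and 5291 in Control and 5119, 5301 and 5116 in si-CITED2, with a log2 fold change of -0.10 (adjusted p = 0.2118) and an overlap of Control 3 with si-CITED2 2. SRSF12, chosen after its values were seen, had 240, 182.8 and 191.8 in Control and 253.8, 267.5 and 255.3 in si-CITED2. Its groups did not overlap and its estimate was the highest of the 56, a log2 fold change of 0.34 with a 95% interval from 0.08 to 0.59 (adjusted p = 0.06402). SRSF6, likewise chosen after its values were seen, had the lowest estimate, and its values are given with those of the libraries numbered 1.

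Of the 12 SNRP genes, 1 rose, 1 fell and 10 did not pass the test. SNRPN encodes SmN, an Sm protein best known from the brain, and its gene is imprinted and expressed from the paternal copy. It had 2119, 1943 and 1937 normalized counts in Control and 2415, 2287 and 2325 in si-CITED2, so that every si-CITED2 library lay above every Control library. Its log2 fold change was 0.23 (SE 0.05, adjusted p = 0.007826 by edgeR), a change of 17.1% with a 95% interval from 8.01% to 26.9%. SNRPN was called in all 14 alternative analyses, with log2 fold changes of 0.20 to 0.27 and adjusted p values up to 0.04993. SNURF, which shares its transcript, had 308.4, 292.2 and 274.2 in Control and 353.3, 324.9 and 353.9 in si-CITED2. With a log2 fold change of 0.23 it did not pass the test (adjusted p = 0.1074). Because these symbols share exons they are not independent.

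SNRPA encodes U1-A, which binds a loop of the U1 snRNA. It had 2331, 2263 and 2284 normalized counts in Control and 2080, 2031 and 2018 in si-CITED2. Every si-CITED2 value was below every Control value, and the log2 fold change was -0.17 (SE 0.05, adjusted p = 0.02911 by edgeR). Without both libraries numbered 1 it was again -0.17 (adjusted p = 0.02945), but leaving out any library other than si-CITED2 1 took the adjusted p to between 0.05323 and 0.1204. SNRPC, the SNRP gene with most counts, had 6700, 6801 and 6245 in Control and 5975, 6281 and 6364 in si-CITED2, which overlapped (log2 fold change -0.08, adjusted p = 0.2902). SNRPD1, an Sm ring protein, had 6201, 5684 and 5784 in Control and 5459, 6203 and 6165 in si-CITED2 (log2 fold change 0.01, adjusted p = 0.9092). SNRPB, which encodes the SmB protein related to SmN, had 5608, 5174 and 4915 in Control and 4932, 5296 and 5344 in si-CITED2 (log2 fold change -0.01, adjusted p = 0.9194), and did not pass the test. The difference between SNRPN and SNRPB was not tested. The other Sm ring genes SNRPD2, SNRPD3, SNRPE, SNRPF and SNRPG had log2 fold changes between -0.02 and 0.07, none past the test.

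Of the 9 SF3 genes, 1 fell and 8 did not pass the test. SF3B3, a scaffold subunit of the SF3B complex that is also found in the SAGA histone acetyltransferase complex, had 8204, 8383 and 8461 normalized counts in Control and 7873, 7147 and 7150 in si-CITED2. All si-CITED2 values were below all Control values, with si-CITED2 1 the nearest to them. The log2 fold change was -0.18 (SE 0.05, adjusted p = 0.02227 by edgeR), and without both libraries numbered 1 it was -0.24 (adjusted p = 0.000438). It was not past the test without Control 2, Control 3, si-CITED2 2 or si-CITED2 3 (adjusted p = 0.0617 to 0.1268). SF3B2 had 19750, 19494 and 19703 in Control and 18108, 18580 and 19031 in si-CITED2, without overlap (log2 fold change -0.08, adjusted p = 0.2461). SF3B1, the subunit that contacts the branch site and is often mutated in myelodysplasia, had 7842, 7824 and 7832 in Control, the narrowest Control group of the 56 (coefficient of variation 0.115%), and 7849, 8186 and 8063 in si-CITED2. It did not overlap either, but on the higher side, with a log2 fold change of 0.04 (adjusted p = 0.6543). SF3A1 had 5385, 5474 and 5702 in Control and 4932, 5317 and 5193 in si-CITED2 (log2 fold change -0.10, adjusted p = 0.1908). It was chosen after its values were seen, as the fourth SF3 gene of 9 whose groups did not overlap (44.4%). That share was 32.5% of all genes tested and 37.5% of those with a mean of at least 100 normalized counts.

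**Figure D3:**
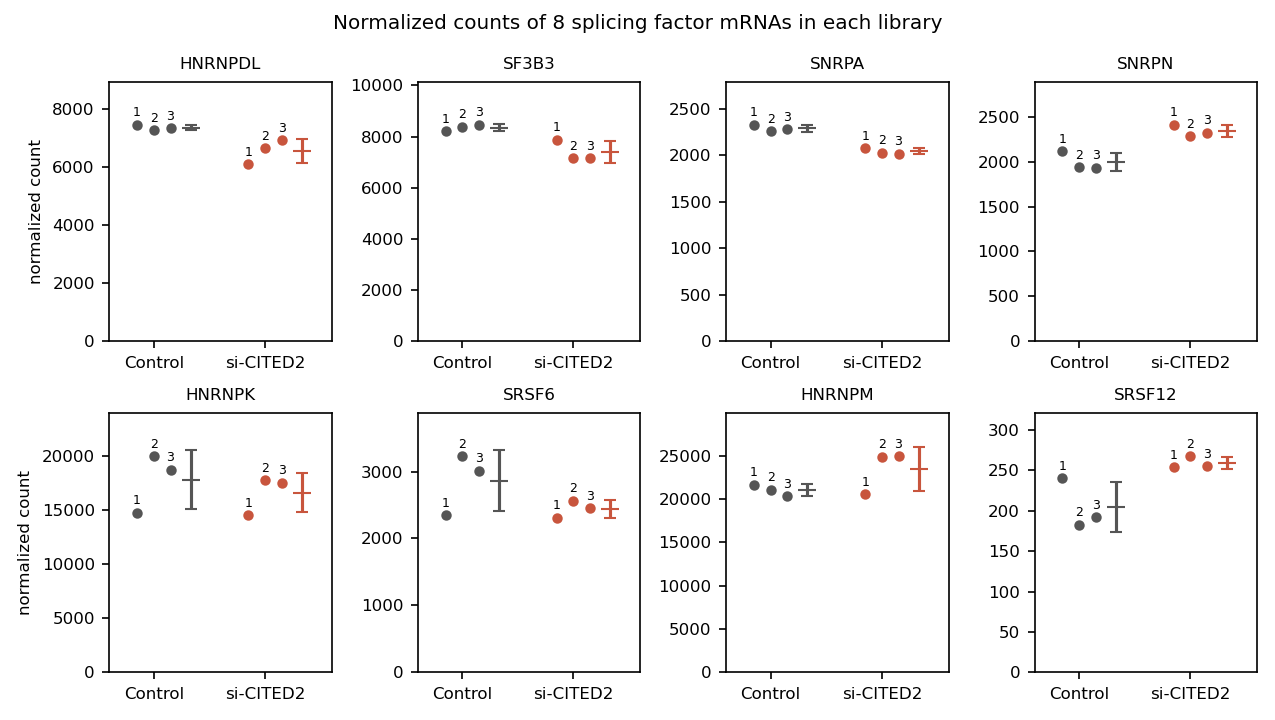
Normalized counts of 8 splicing factor mRNAs, with 1 point per library numbered as in the labels (Control grey, si-CITED2 red) and the mean ± SD of each group beside it (n = 3). The top row holds the 4 genes past the test, whose groups do not overlap; in the bottom row the libraries numbered 1 sit low for HNRNPK and SRSF6 in both groups, low for HNRNPM in si-CITED2 and high for SRSF12 in Control.

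The libraries numbered 1 decided several of these values. Control 1 was the highest Control library for 40 of the 56 symbols, including 10 of the 12 SNRP genes, and si-CITED2 1 was the lowest si-CITED2 library for 41 of the 56. The median of the 56 log2 ratios to the mean of all 6 libraries was 0.06 in Control 1 and -0.06 in si-CITED2 1, against -0.03 to 0.01 in the other 4. HNRNPK, a poly(C)-binding regulator of transcription and splicing, went against this in Control 1. It had 14781, 19987 and 18733 normalized counts in Control and 14529, 17750 and 17530 in si-CITED2, low in both libraries numbered 1. SRSF6 showed the same arrangement, with 2347, 3228 and 3013 in Control and 2310, 2566 and 2449 in si-CITED2. With all 6 libraries their log2 fold changes were -0.10 (adjusted p = 0.5115) and -0.23 (adjusted p = 0.08589), and without both libraries numbered 1 they were -0.13 (adjusted p = 0.01853) and -0.32 (adjusted p = 0.000539). HNRNPM had 21632, 21077 and 20325 in Control and 20550, 24888 and 24921 in si-CITED2, where only si-CITED2 1 lay among the Control values. Its log2 fold change went from 0.16 (adjusted p = 0.1045) to 0.27 (adjusted p = 3.845e-05) without both. HNRNPK, SRSF6 and HNRNPM were chosen after their values, including those of the libraries numbered 1, were seen. Their adjusted p values without those libraries are therefore not independent evidence.

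Without both libraries numbered 1, an analysis added after the data were seen that leaves 2 libraries per group, 14 of the 56 passed the test (25%) where 19.5% of all 16406 genes tested did. Of these, 10 were higher (HNRNPA2B1, HNRNPM, HNRNPR, SRSF9, SRSF12, SNRPB2, SNRPF, SNRPG, SNRPN and SF3B6) and 4 lower (HNRNPK, SRSF6, SNRPA and SF3B3), beside 10.5% of all genes higher and 9.01% lower. The median log2 fold change of the 56 was then 0.01. Of the 4 symbols called with all 6 libraries, 3 were also called here and HNRNPDL was not. Over all 14 alternatives and the comparison of 6 libraries, 19 of the 56 symbols passed the test at least once and 37 never did. The fit without both libraries numbered 1 called 14 of these 19. A matching count over all genes was not made, so the 19 cannot be set against a background.

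**Figure D4:**
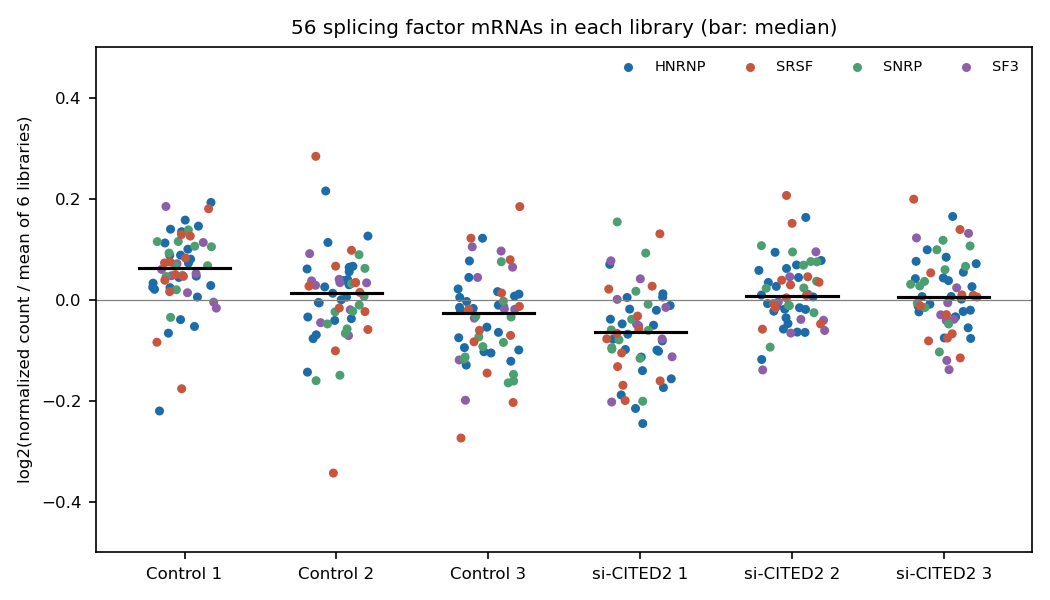
Log2 of each normalized count over the mean of the 6 libraries, with 1 point per splicing factor symbol (56 in each library) coloured by family, random sideways spread and a bar at the median. The median is 0.064 in Control 1 and -0.064 in si-CITED2 1, and between -0.027 and 0.014 in the other libraries.

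Summed over the 56 symbols, the share of all counts was 1.73%, 1.708% and 1.664% in Control and 1.592%, 1.688% and 1.686% in si-CITED2. These ranges overlapped, and the ratio of the means was 0.973 (exact two-sided permutation test, p = 0.4). The SF3 share was 0.2358%, 0.2361% and 0.2367% in Control and 0.2225%, 0.2242% and 0.2242% in si-CITED2. It was lower in all 3 si-CITED2 libraries than in any Control library, including those numbered 1, with a ratio of 0.947 (exact permutation test, p = 0.1, the smallest that 3 against 3 libraries can give). Scaled by TMM the SF3 ratio was 0.958 with the same p. The HNRNP, SRSF and SNRP shares gave ratios of 0.978, 0.957 and 0.992 (exact permutation test, p = 0.5, 0.2 and 0.9), each with overlapping groups. In these bulk samples fewer cells of a kind and less RNA per cell cannot be told apart.

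The other genes of the splicing pathway were described from 7 lists. Of the 160 tested, 22 fell and 2 rose (15%, beside 17.4% of all genes). The snRNP assembly list, which holds the SMN complex and the methylosome that load Sm proteins onto snRNA, had 6 of 18 lower and none higher (33.3%), with a median log2 fold change of -0.16. Like the other lists it was drawn up with earlier results of these data known, so its count is not independent evidence. GEMIN4 of the SMN complex had 927, 901.7 and 1031 normalized counts in Control and 797.8, 743.4 and 748.3 in si-CITED2 (log2 fold change -0.32, adjusted p = 0.003625). WDR77, the partner of the methyltransferase PRMT5, had 755.5, 861.4 and 834.2 in Control and 661.8, 698.5 and 700.1 in si-CITED2 (log2 fold change -0.25, adjusted p = 0.02077). GEMIN5, which recognises snRNA, had 1875, 1808 and 1849 and then 1573, 1585 and 1525 (log2 fold change -0.24, adjusted p = 0.003913). None of these groups overlapped. PRMT5, TGS1 and RIOK1 were the other 3 that fell, PRMT5 by 0.17 on the log2 scale (adjusted p = 0.02896). The Sm proteins that this machinery handles are encoded by SNRP genes, and among the Sm ring genes SNRPN passed the test with all 6 libraries, and SNRPN, SNRPF and SNRPG without both libraries numbered 1.

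In the remaining lists, 3 of 17 early factors fell, led by U2AF2, the subunit that reads the polypyrimidine tract, with 5117, 5021 and 4969 normalized counts in Control and 4311, 4253 and 4097 in si-CITED2 (log2 fold change -0.26, adjusted p = 0.0009244). Of 25 tri-snRNP genes 3 fell, led by PRPF4 (log2 fold change -0.28, adjusted p = 0.0004176), and of 28 genes of the catalytic stages 3 fell, led by DDX41 (log2 fold change -0.23, adjusted p = 0.007281). SNRNP25 of the minor spliceosome fell by 0.25 on the log2 scale (adjusted p = 0.02625), 1 of 10 in its list. Of 23 SR kinases and SR-related proteins, SRRM2 and SON fell. Of 39 other regulators, 4 fell, led by MBNL1, and 2 rose, PTBP2 and MBNL2, which control exon choice in neurons and muscle among other tissues. MBNL2 had 642.6, 579.7 and 693 in Control and 813.6, 848.5 and 751.5 in si-CITED2 (log2 fold change 0.34, adjusted p = 0.005592), and PTBP2 389.3, 429.9 and 365.9 and then 435.9, 557.1 and 497.4 (log2 fold change 0.33, adjusted p = 0.028). GEMIN4, GEMIN5, TGS1, U2AF2, PRPF4 and MBNL2 were called in all 14 alternative analyses, DDX41 in 13, PTBP2 in 10, and WDR77, PRMT5, RIOK1 and SNRNP25 in 9 each. The number of the 160 that fell was 8 without Control 2, 11 without Control 3, 12 without si-CITED2 2 and 10 without si-CITED2 3. Over all genes, those fits gave 4075, 4340, 4030 and 4068 at an unadjusted p under 0.05 by edgeR, beside 4728 with all 6 libraries. Shares of all genes at the adjusted p are not given here for those fits, so these counts lack that background. Without both libraries numbered 1, 27 of the 160 fell, beside 9.01% of all genes tested. NCL, the nucleolar protein nucleolin that the study follows as a CITED2 partner, had 35934, 34196 and 33617 in Control and 27843, 31889 and 31029 in si-CITED2 (log2 fold change -0.19, adjusted p = 0.01969). The call of NCL was lost without Control 2 (adjusted p = 0.05717) or si-CITED2 1 (adjusted p = 0.0658), and without both libraries numbered 1 its log2 fold change was -0.11 (adjusted p = 0.02175).

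**Figure D5:**
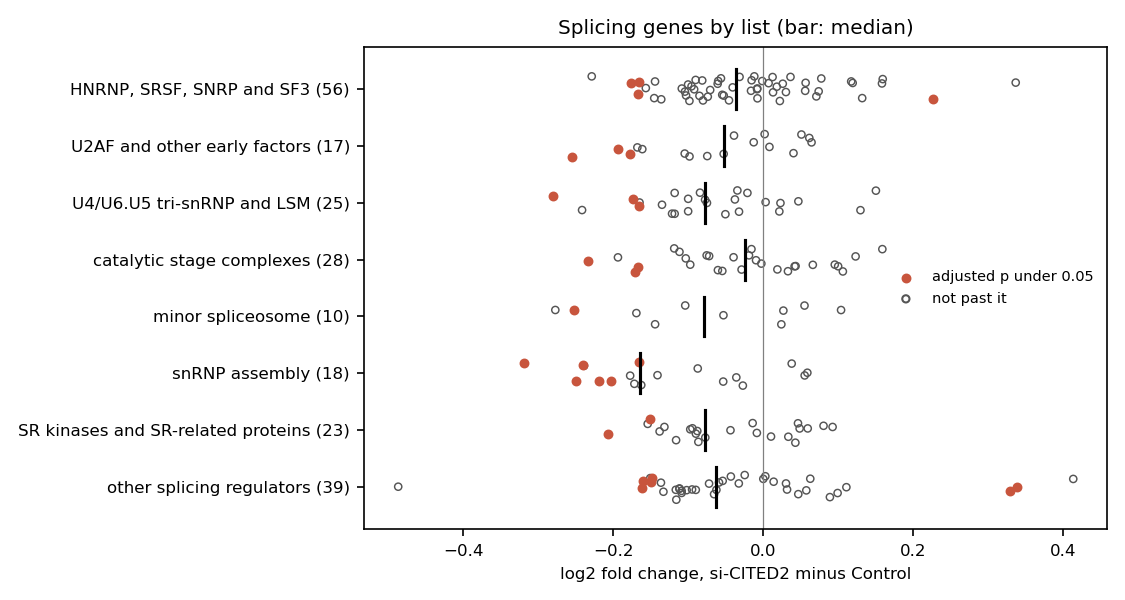
Log2 fold change of si-CITED2 against Control for the 56 splicing factor symbols and for 7 lists of other splicing genes, with the number tested in brackets, red for adjusted p under 0.05 (edgeR, n = 3 per group) and a bar at each median. The median lies at -0.16 for snRNP assembly and at -0.04 for the 56 symbols.

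Promoter sequences from RefSeq (GRCh38.p14) were matched for 51 of the 56 symbols, in 74 windows from 250 bases before to 50 bases after a transcription start. Exact matches on either strand were counted for 7 motifs that can overlap each other. The ETS core CCGGAA stood in 35.1% of these windows and 17.2% of all 35116 windows, TGACG, part of the cyclic AMP response element, in 39.2% and 24.6%, and the E-box CACGTG in 13.5% and 7.26%. CCAAT stood in 39.2% and 34.6%, TATAAA in 9.46% and 11.5%, a YY1 motif in 1.35% and 1.2%, and an NRF1 motif in 0% and 1.24%. These are shares of letters only and were not tested. The windows of SNRPA, which fell, and of SNRPN, which rose, are shown as the members whose values changed in opposite directions within the SNRP family. RefSeq gives a single window for SNRPA, at chr19:40750953-40751252 on the plus strand, and 4 for SNRPN, of which the window with most CpG sites, at chr15:24954737-24955036 on the plus strand, is printed. Capitals mark motif matches.
SNRPA: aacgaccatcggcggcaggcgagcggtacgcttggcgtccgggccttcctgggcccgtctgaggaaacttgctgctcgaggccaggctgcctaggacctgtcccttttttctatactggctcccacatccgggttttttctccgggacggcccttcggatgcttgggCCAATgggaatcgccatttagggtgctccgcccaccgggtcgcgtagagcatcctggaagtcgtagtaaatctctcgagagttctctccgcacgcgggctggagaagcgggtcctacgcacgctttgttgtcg
SNRPN: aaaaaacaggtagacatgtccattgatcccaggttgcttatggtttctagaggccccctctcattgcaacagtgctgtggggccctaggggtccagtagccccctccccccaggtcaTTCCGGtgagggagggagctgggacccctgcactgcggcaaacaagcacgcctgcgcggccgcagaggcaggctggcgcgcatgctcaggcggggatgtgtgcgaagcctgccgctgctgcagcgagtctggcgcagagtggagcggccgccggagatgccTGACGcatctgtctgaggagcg
The SNRPA window held 28 CpG sites and a single CCAAT, and the SNRPN window 18 CpG sites, an ETS core read on the minus strand (TTCCGG) and a TGACG.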

How the data were processed

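RNA-seq was performed in 6 libraries of PC3 cells, 3 labelled Control and 3 labelled si-CITED2. The values deposited by the authors were raw read counts per symbol in 1 table per library, not normalized. The submitters' processing notes name TopHat, edgeR and the build hg19, without versions. The counting program, its use of strand and the annotation are not given in the sources used here. The tables held 25737 rows for 24462 symbols, and for a symbol on more than 1 row only its row of highest count entered, so that 0.0821% of counts were set aside.

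The groups were compared with edgeR 4.0.16 in R 4.3.3 (filterByExpr, TMM, glmQLFit and glmQLFTest without a block). Benjamini-Hochberg adjustment ran over the 16314 genes tested, and genes were called at an adjusted p under 0.05. SE and 95% intervals were taken from the F statistic. Normalized counts were counts over the TMM-adjusted library size times their mean. The biological coefficient of variation common to all genes was 0.0614, and 3 counts corresponded to 0.104 to 0.154 CPM. The scripts were tested on simulated data. Alternatives were RLE scaling, no TMM, other filters, DESeq2 1.42.0, the replicate number as a block, summed rows and leaving out each library in turn. The analysis without both libraries numbered 1 was chosen after seeing the data.

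Lengths, shared stretches of 50 bases and coding sequences came from GENCODE 29 (GRCh38), a build other than that of the counts, so no coordinate was joined to them. Exon lengths were unions over basic transcripts, and HNRNPU-AS1 was not matched. Promoters came from RefSeq. Named genes were the called members, the 2 with most counts in each family, members with near-identical copies, CITED2, NCL and up to 3 called genes of each other list. Apart from the cell type markers, any other gene should be read as chosen after its values were seen, also where the text does not say so. The members and the lists were chosen with earlier results of these data known. Values of a few genes are not reported here.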

Additional observations from a re-analysis of the deposited data

Results flagged for a closer look

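HNRNPA1P33, an intronless pseudogene related to HNRNPA1 that the choice of members left out, had 95.1, 68.4 and 78.8 normalized counts in Control and 217.4, 201.6 and 172 in si-CITED2. It stood out as a signal among rows that the report does not use, higher in every si-CITED2 library than in any Control library, with a log2 fold change of 1.2854 (SE 0.15, adjusted p = 1.517e-05 by edgeR). HNRNPA1 itself had a log2 fold change of 0.03 (adjusted p = 0.7799), and HNRNPA1P33 shared 24.8% of its stretches of 50 bases with other genes. In RefSeq the pseudogene lies within the span of the noncoding gene LINC00842 and next to ANXA8L1, both looked up after its values were seen. LINC00842 had 96.9, 108.7 and 88.2 normalized counts in Control and 548.8, 451 and 475.5 in si-CITED2 (log2 fold change 2.31, adjusted p = 4.56e-10), and ANXA8L1 had 77.3, 53.1 and 27.1 and then 365.5, 267.5 and 280.5 (log2 fold change 2.49, adjusted p = 5.467e-07). Whether the 3 symbols share reads was not tested.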

How the results depend on the processing

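Without TMM 6 of the 56 symbols fell in place of 3, and the median of all genes shifted from -0.001 to -0.018. Leaving out single libraries gave 0 to 3 that fell and 1 to 5 that rose. Among the 160 other splicing genes it gave 8 to 23 that fell and 1 to 3 that rose. For the fit without TMM and for single libraries left out, the counts of all genes called are not given here. Those counts of the 56 and of the 160 therefore have no background at the adjusted p beside them. Without both libraries numbered 1, 10 of the 56 and 10 of the 160 rose, in place of 1 and 2, beside 10.5% of all genes tested. The SF3 ratio was 0.9579 in place of 0.9467 on TMM-normalized counts. Same-numbered libraries correlated in their deviations from the group means over all genes by -0.038, 0.0336 and -0.0109. Over the 56 symbols those correlations were 0.124, 0.135 and -0.185. The labels do not say whether same-numbered libraries were made together, and these values cannot decide it. With the replicate number as a block 2 of the 56 fell and 1 rose; HNRNPDL (adjusted p = 0.05282) and SNRPA (adjusted p = 0.05481) were lost and SRSF6 (adjusted p = 0.03548) was gained. Under the block 16 of the 160 fell and 2 rose, and 1154 of all genes fell and 1405 rose.

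Log2 fold changes turned sign as follows, from values with all 6 libraries between -0.10 (HNRNPA1L2) and 0.08 (SRSF5), none of them past the test. Without TMM they were -0.0095 for HNRNPA3, -0.0036 for SNRPD1 and -0.0041 for SRSF3, and with at least 10 counts in every library 0.0005 for SF3B4. Without both libraries numbered 1 they were 0.0211 for HNRNPA0, 0.0434 for HNRNPA1L2, 0.0224 for HNRNPC, 0.0687 for HNRNPH2, 0.0125 for HNRNPH3, -0.0221 for HNRNPU-AS1, 0.0705 for SF3B5, 0.0532 for SNRPA1, 0.0761 for SNRPB, 0.0541 for SNRPD2, 0.0816 for SNRPE and 0.0169 for SRSF8. Leaving out single libraries gave ranges of -0.0544 to 0.0195 for HNRNPA0, -0.0049 to 0.071 for HNRNPA1, -0.0405 to 0.051 for HNRNPA3, -0.0151 to 0.0457 for HNRNPH1, -0.061 to 0.0266 for HNRNPH2, -0.0942 to 0.0024 for HNRNPH3, -0.0011 to 0.0954 for HNRNPLL, -0.0963 to 0.019 for HNRNPUL2 and -0.042 to 0.0208 for SF3B4. They were -0.1005 to 0.0501 for SNRPA1, -0.0553 to 0.041 for SNRPB, -0.0215 to 0.0689 for SNRPD1, -0.0642 to 0.0642 for SNRPD2, -0.02 to 0.0531 for SNRPD3, -0.0555 to 0.0406 for SNRPE, -0.0248 to 0.0592 for SRSF3, -0.0077 to 0.1534 for SRSF5 and -0.0725 to 0.0273 for SRSF8. The cause was not tested.

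With 3 libraries per group the median SE of the 56 log2 fold changes was 0.055, and the smallest change called among them was a fall of 10.8%. Among the 160 other splicing genes PCBP1, which fell by 9.78%, was called.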
